A study of Mus musculus with 6 samples.

Results

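p53 and its core target genes were examined in RNA sequencing libraries of MEFs (mouse embryonic fibroblasts), cultured connective tissue cells that were originally taken from embryos. The 10 genes were Trp53, Mdm2, Cdkn1a, Ccng1, Bax, Bbc3, Zmat3, Eda2r, Phlda3 and Trp53inp1, out of 56953 genes in the deposited table. They are a list of names, matched through Ensembl identifiers in the GENCODE mouse annotation, and were chosen with earlier results of these data known. There were 3 libraries labelled WT and 3 labelled GαqKO. By the study's methods the second genotype is Gαq/11 knockout, both genotypes came as existing cells from another laboratory and all were grown in DMEM with fetal bovine serum. The number of independent lines per genotype is not stated, so the genotype cannot be told apart from other differences between the lines. The study's methods speak of 3 biological replicates each, and p-values here measure the spread between these libraries.

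p53, the product of Trp53, is a transcription factor that is kept low by the ubiquitin ligase Mdm2 and rises when DNA is damaged or oncogenes are active. It binds a short DNA element near its target genes and turns on genes that stop the cell cycle, trigger cell death or feed back on p53 itself. In cultured mouse fibroblasts this pathway is a main barrier to unlimited growth, and immortalized lines often carry lesions in Trp53 or in the Cdkn2a locus. The labels and the methods do not state whether these cells were immortalized, and the genes were compared as a transcript readout of that state. Transcript levels of Trp53 do not show how much p53 protein was present or whether it was functional.

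The values are normalized counts, the authors' gene counts scaled by 1 size factor for each library. They summed to between 11392429 and 11483486 per library, and the reads on genes that could be recovered for 5 libraries ranged from 9853000 to 12229175. Differences were tested with limma on log2(normalized count + 1), and p-values were adjusted by Benjamini-Hochberg over the 14096 genes that reached 10 normalized counts in 3 or more libraries. The lines differed widely, as 9279 genes (65.8%) had an adjusted p under 0.05. Gnaq, the gene of Gαq, had 1691 ± 48.5 normalized counts in WT and 1926 ± 36 in the libraries labelled GαqKO (SD, n = 3). Gna11, the gene of Gα11, had 2148 ± 29.0 and 451.6 ± 28.7 (SD, n = 3). The transcript level of Gnaq was therefore not lower under the knockout label, and the label is used here as a name only. For its GαqKO MEFs the paper reports loss of Gαq protein by Western blot and immunofluorescence. Transcript counts of a gene do not measure its protein. All 10 markers fixed for fibroblasts were tested, of which 5 were higher and 5 lower in GαqKO. Among the higher ones, Pdgfra, Dcn and Thy1 were close to 0 in WT, with 19.6, 32.1 and 0.7 normalized counts on average. Pdgfrb and S100a4, also higher, had WT means of 892.2 and 169.8. The 5 lower were abundant in both groups. Their means in WT and GαqKO were 16671 and 5774.5 for Col1a1, 13451 and 10455 for Col1a2, and 2710 and 2393 for Col3a1. For Vim they were 41785 and 33508, and for Fn1 11826 and 7117. Of 5 epithelial markers, Cdh1 and Krt14 were at 238 and 258 normalized counts in WT and at 8.0 and 1.1 in GαqKO. Epcam, Krt5 and Cldn4 were too low to be tested, with means of 3.1, 0.3 and 1.0 in WT and 4.6, 0 and 0 in GαqKO. The sum over the 5 in WT was therefore almost all Cdh1 and Krt14. The summed epithelial markers ran from 492.5 to 510.5 in WT and from 9.0 to 20.8 in GαqKO, while the 5 endothelial markers summed to 12.6 to 23.4 and 15.0 to 25.5. The 5 haematopoietic markers summed to 104.4 to 115 and 69.5 to 103, of which most was Cd68, and the 5 skeletal muscle markers to 0 to 4.1 and 4.6 to 9.0. Their part in the results on the p53 genes was not tested. In bulk samples, fewer cells of a type and less RNA per cell cannot be told apart.

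All 10 p53 genes passed the filter and all 10 had an adjusted p under 0.05, beside 65.8% of all genes tested. Trp53, Mdm2, Cdkn1a, Ccng1, Eda2r, Phlda3 and Trp53inp1 were lower in GαqKO, so 7 of 10 fell, beside 34.1% of all genes that did. Bax, Bbc3 and Zmat3 were higher, or 3 of 10 beside 31.8% of all genes. In all 10 the values of both groups did not overlap, as in 69.6% of all genes tested. Only Trp53inp1 changed by more than 1 on the log2 scale, which 20.7% of all genes did with an adjusted p under 0.05. The median log2 fold change of the 10 genes was -0.66, against -0.01 over all genes tested, and the median size of the change was 0.76, against 0.39. A change as large as that of Phlda3 was seen in 21.9% of all genes tested, one as large as that of Trp53 in 25.0% and one as large as that of Bbc3 in 49.3%. The change of Trp53inp1 was matched or exceeded in 10.1% of all genes tested.

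**Figure D1:**
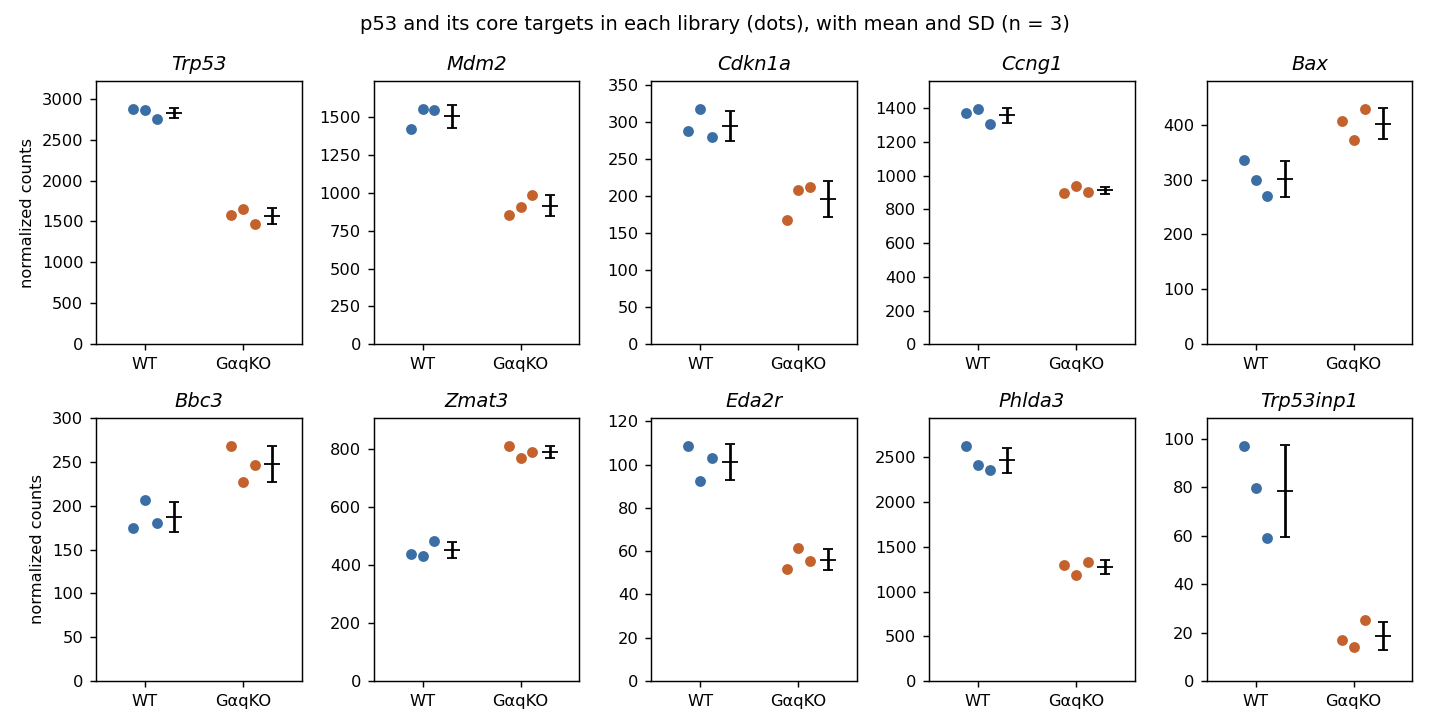
Normalized counts of p53 and its core targets in each library. Each panel is a gene, the dots are the 3 WT and the 3 GαqKO libraries, and the bar beside them gives the mean and SD. In the panels of Bax, Bbc3 and Zmat3 the GαqKO dots lie above the WT dots, and in the other 7 they lie under them.

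Trp53 (ENSMUSG00000059552.14; GRCm39 chromosome 11, 69469669 to 69482701, plus strand) encodes p53 itself. It had 2872, 2856 and 2750.2 normalized counts in the WT libraries and 1580.4, 1657 and 1467 in the GαqKO libraries. Every GαqKO library lay well under every WT library, and the spread within each group was small. The means were 2826 ± 66.0 and 1568 ± 95.4 (SD, n = 3), a log2 fold change of -0.85 (95% interval -0.96 to -0.74, adjusted p = 4.42e-09 from limma, standard error 0.051). Of the exon bases of Trp53, 5.7% are shared with exons of other genes, among them the antisense gene Wrap53.

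A further row of the table held even more reads than Trp53. Trp53-ps (ENSMUSG00000090704.3; chromosome 17, 54726708 to 54727869, plus strand) is annotated as a processed pseudogene, that is a copy of the spliced Trp53 transcript without introns. By blastn its 1162 bases aligned with the canonical Trp53 transcript over 1170 aligned positions at 94.96% identity. It had 3476, 3241 and 3283 normalized counts in WT and 1842, 1769 and 1859 in GαqKO, and its log2 fold change was -0.87 (95% interval -0.97 to -0.77, adjusted p = 1.01e-09 from limma). In every library it was higher than Trp53, by a ratio of 1.18 ± 0.04 in WT and 1.17 ± 0.10 in GαqKO (SD, n = 3). The interval of its change overlapped that of Trp53 over most of its length. Over the whole alignment there were 43 mismatches and 6 gaps. The stretch of coding sequence below crosses an exon junction of Trp53 and was chosen for the fewest differences from the copy. It therefore shows the junction where they are most alike. The capitals mark the 4 bases around the junction of exons 2 and 3 of the canonical transcript, chr11:69477780-69477799 and chr11:69478083-69478102 in the gene, which an intron of 283 bases separates, and chr17:54726762-54726801 in the copy.
Trp53: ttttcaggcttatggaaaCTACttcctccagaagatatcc
Trp53-ps: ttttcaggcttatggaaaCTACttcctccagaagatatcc
The 40 bases differ at 0 positions, so in the genome they are unbroken in the copy and not in the gene. From these counts, reads of Trp53 mRNA and of the copy cannot be told apart. With the copy added, Trp53 had 6348, 6097 and 6033 normalized counts in WT and 3423, 3426 and 3326 in GαqKO, and the log2 fold change was -0.86 (adjusted p = 3.44e-10 from limma). This sum was set up after the values had been seen. In the same blastn search of the canonical transcripts of the other core targets, the hit of at least 200 bases at 90% identity or more was between Mdm2 and the long non-coding Gm56970. That gene overlaps Mdm2 on the opposite strand, so it is not a copy elsewhere, and had 0.94 to 5.78 normalized counts per library.

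The 20-base p53 response element, made of a pair of half-sites that each hold a 4-base core, was looked for within 3000 bases on either side of the start of the canonical transcript of each gene. The first and the last base of each core, C and G, were kept fixed, up to 3 bases were allowed between the half-sites, and mismatches were counted at all other positions, those inside the cores included. The element equals its own reverse complement, so both strands were covered. Without a mismatch it was found at 2 of the 10 genes, Zmat3 and Trp53inp1, beside 0.483% of the 11801 protein-coding genes tested for expression and 0.492% of all 21757 protein-coding genes. With at most 1 mismatch it was found at 4 of 10, beside 5.79% and 5.18%, and with at most 2 at 7 of 10, beside 29.5% and 26.9%. Among 45 other p53 targets the numbers were 0, 5 and 24. Both lists were made of genes already known as p53 targets, so shares above those of all genes are no independent result. The best matches at the targets with 0 or 1 mismatch and at the death genes Bax and Bbc3, which rose, are shown on the strand of the gene, with the cores in capitals.
Zmat3: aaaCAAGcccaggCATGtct
Trp53inp1: aaaCATGtccaggaCTAGcct
Cdkn1a: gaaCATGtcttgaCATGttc
Ccng1: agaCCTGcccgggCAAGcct
Bax: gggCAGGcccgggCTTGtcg
Bbc3: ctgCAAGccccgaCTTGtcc
The site of Zmat3 (chr3:32418480-32418499, minus strand) lies 1418 bases after the start, in an intron of the canonical transcript that is exon in another. That of Trp53inp1 (chr4:11155112-11155132, plus strand) lies upstream, at -1290 bases from the start, and has 1 spacer base. The Cdkn1a site (chr17:29309902-29309921, plus strand) lies at -2826 bases from the start with 1 mismatch, and the Ccng1 site (chr11:40646289-40646308, minus strand) at -160 bases with 1 mismatch. At Bax the site (chr7:45115998-45116017, minus strand) is 318 bases after the start, again in an intron that is exon in another transcript, with 2 mismatches. At Bbc3 (chr7:16043411-16043430, plus strand) it is 750 bases after the start, in an untranslated exon, with 3 mismatches. Of the pair without a mismatch, Zmat3 rose and Trp53inp1 fell, and of the pair with 1 mismatch both fell. A match describes the letters only and no binding was measured.

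**Figure D2:**
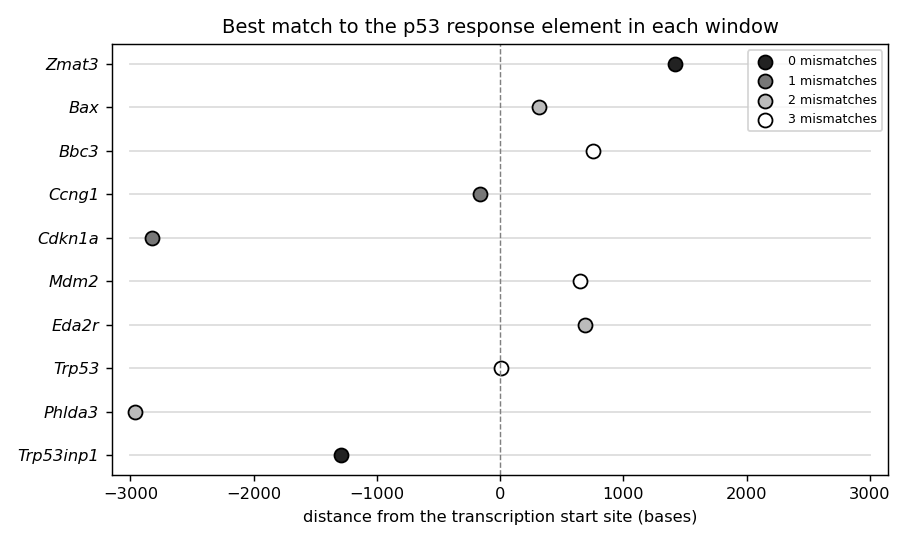
Position of the best match to the p53 response element around the transcription start of each gene. The horizontal axis gives the distance from the start in bases, each row is a gene, and the shade of the dot gives the number of mismatches. The dots of Zmat3 and Trp53inp1 have 0 mismatches, and those of Trp53, Mdm2 and Bbc3 have 3.

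Mdm2 and Ccng1 feed back on p53. Mdm2 (ENSMUSG00000020184.16; chromosome 10, 117524780 to 117546730, minus strand) encodes the ligase that marks p53 for degradation and is itself a p53 target. It had 1421, 1554 and 1552 normalized counts in WT and 853, 908 and 990 in GαqKO, with no overlap between the groups. The means were 1509 ± 76.3 and 917 ± 69.1 (SD, n = 3), a change of -0.72 on the log2 scale (adjusted p = 2.07e-07 from limma, standard error 0.062). Mdm2 and Trp53 fell side by side, and the ratio of their normalized counts in single libraries was 0.495, 0.544 and 0.564 in WT and 0.540, 0.548 and 0.675 in GαqKO, so these ratios overlapped. Ccng1 (ENSMUSG00000020326.8; chromosome 11, 40639377 to 40646148, minus strand) encodes cyclin G1, a p53-induced partner of the phosphatase that activates Mdm2. Of the exon bases of Ccng1, 81.3% lie within the spans of other annotated genes, and what this does to its counts was not tested. Its normalized counts were 1374, 1395 and 1305 in WT and 899, 939 and 904 in GαqKO. The GαqKO libraries lay close together and all under the WT libraries, with means of 1358 ± 47.2 and 914 ± 21.8 (SD, n = 3) and a change of -0.57 on the log2 scale (adjusted p = 2.75e-07 from limma, standard error 0.051).

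Cdkn1a (ENSMUSG00000023067.15; chromosome 17, 29309936 to 29319701, plus strand) encodes p21, the inhibitor of cyclin-dependent kinases through which p53 halts the cell cycle. Its normalized counts were 287, 317 and 279 in WT and 167, 208 and 212 in GαqKO. The lowest WT library was above the highest GαqKO library, and GαqKO replicate 1 was the lowest of all. The means were 294 ± 19.9 and 196 ± 24.7 (SD, n = 3), with a log2 fold change of -0.59 (95% interval -0.83 to -0.36, adjusted p = 0.000306 from limma, standard error 0.110). Of its exon bases, 72.2% lie within the spans of other annotated genes, and what this does to its counts was not tested. Exons of antisense non-coding genes share 12.5% of them, and the antisense transcript Dino, which is annotated there, was listed at 0 in all 6 libraries. Of the exon bases of Dino, 100% lie within the spans of other annotated genes and 48.2% are shared with exons of Cdkn1a. What part this overlap has in the listed zeros was not tested. As the strand setting of the counting is not stated, it is not known whether reads of both strands were separated.

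Bax and Bbc3 are death genes of the BCL2 family, and both were higher in GαqKO. Bax (ENSMUSG00000003873.12; chromosome 7, 45111015 to 45116325, minus strand) encodes a protein that opens the outer membrane of mitochondria. It had 335, 298 and 271 normalized counts in WT and 406, 371 and 428 in GαqKO. The groups were separate but close, since the highest WT library reached 335 and the lowest GαqKO library 371. The means were 301 ± 32.3 and 402 ± 28.6 (SD, n = 3), with a log2 fold change of 0.42 (95% interval 0.21 to 0.62, adjusted p = 0.0014 from limma, standard error 0.093). Of the exon bases of Bax, 13.6% are shared with exons of other genes and 47.5% lie within the spans of other annotated genes. Bbc3 (ENSMUSG00000002083.14; chromosome 7, 16042318 to 16052130, plus strand) encodes PUMA, a BH3-only protein that frees Bax from its inhibitors. It had 174, 207 and 180.2 normalized counts in WT and 269, 228 and 247 in GαqKO. The means were 187 ± 17.4 and 248 ± 20.4 (SD, n = 3), with a log2 fold change of 0.40 (95% interval 0.17 to 0.63, adjusted p = 0.00452 from limma, standard error 0.107). The call of Bbc3 was lost in DESeq2 on the recovered reads of 5 libraries (log2 fold change 0.41, adjusted p = 0.0618).

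Zmat3 (ENSMUSG00000027663.13; chromosome 3, 32388941 to 32420163, minus strand) encodes an RNA-binding protein that regulates splicing and RNA stability. It rose in every GαqKO library, with 439, 431 and 481 normalized counts in WT and 810.4, 768 and 789 in GαqKO. The means were 450.4 ± 27.1 and 789 ± 21.3 (SD, n = 3), a change of 0.81 on the log2 scale (adjusted p = 9.41e-08 from limma, standard error 0.065). This was the largest rise among the 10 genes.

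Eda2r, Phlda3 and Trp53inp1 act in receptor signalling, in restraint of Akt and in autophagy and death, in that order, and all were lower in GαqKO. Phlda3 (ENSMUSG00000041801.6; chromosome 1, 135693809 to 135697686, plus strand) encodes a small protein that keeps Akt from the membrane. It had 2628, 2414 and 2356 normalized counts in WT and 1292, 1183 and 1334 in GαqKO, so each GαqKO library was far below each WT library. The means were 2466 ± 143.3 and 1269.7 ± 78.2 (SD, n = 3), with a change of -0.96 on the log2 scale (adjusted p = 4.58e-09 from limma, standard error 0.057). Eda2r (ENSMUSG00000034457.11; chromosome X, 96320270 to 96420847, minus strand) encodes a receptor of the TNF family for ectodysplasin A2. It was low in all libraries, with 109, 92.3 and 103 normalized counts in WT and 51.6, 61.3 and 55.4 in GαqKO. The means were 101 ± 8.3 and 56.1 ± 4.9 (SD, n = 3), and the log2 fold change was -0.84 (95% interval -1.19 to -0.49, adjusted p = 0.000418 from limma, standard error 0.161). Trp53inp1 (ENSMUSG00000028211.12; chromosome 4, 11156412 to 11175230, plus strand) encodes a stress protein of the nucleus and autophagosomes. It changed most of the 10 and varied most, with 97.1, 79.7 and 59.0 normalized counts in WT and 16.9, 13.9 and 25.2 in GαqKO. The means were 78.6 ± 19.1 and 18.7 ± 5.8 (SD, n = 3), with a log2 fold change of -2.03 (95% interval -2.61 to -1.45, adjusted p = 1.6e-05 from limma, standard error 0.270).

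The median change differed between chromosomes, from -0.35 on chromosome 4 to 0.32 on chromosome 3 among the autosomes, and the 10 genes lie on 8 chromosomes. On Y, which holds none of them, the median over 7 tested genes was -8.21, so transcripts of Y genes were far lower in GαqKO than in WT. What this difference has to do with the p53 genes was not tested. All 10 genes moved to the same side of 0 as the median of their own chromosome, as did 63% of the 9258 called genes with a known chromosome. The 3 genes that rose lie on chromosome 3 (Zmat3) and on chromosome 7 (Bax and Bbc3), whose medians were 0.32 and 0.18. Trp53 and Ccng1 share chromosome 11 with a median of -0.11, Mdm2 lies on chromosome 10 with -0.28, Eda2r on X with -0.27 and Trp53inp1 on chromosome 4 with -0.35. The medians of chromosome 1 (Phlda3) and chromosome 17 (Cdkn1a) were -0.02 and -0.01. With the chromosome medians taken out, an alternative chosen after the values had been seen, Zmat3 was at 0.48 (adjusted p = 2.49e-05 from limma) and Bax at 0.24 (adjusted p = 0.0436), and Bbc3 was no longer called at 0.22 (adjusted p = 0.0913). Under the same setting the 7 genes that fell were called, with log2 fold changes from -0.44 for Mdm2 to -1.68 for Trp53inp1.

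**Figure D3:**
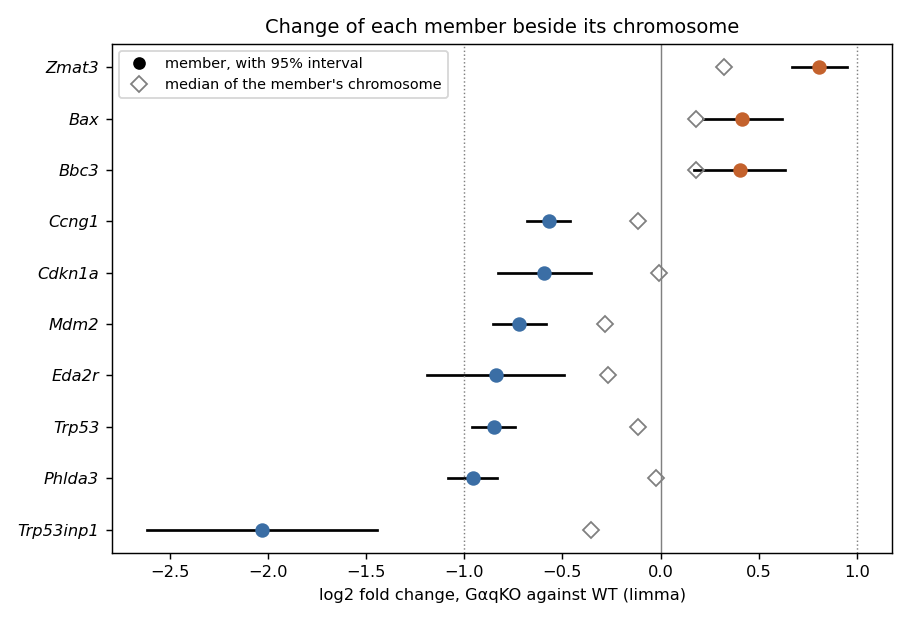
Log2 fold change of each gene, GαqKO against WT, from limma, with its 95% interval (dots with bars), beside the median log2 fold change of all genes tested on the same chromosome (open diamonds). The dotted lines mark a log2 fold change of 1 in either direction. The interval of Trp53inp1 alone lies fully past -1, and the diamond of chromosome 7 falls inside the interval of Bbc3.

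Levels were compared between genes per kilobase of exon, with all annotated exons of a gene merged. That length can far exceed a single transcript, with 7379 bases for Trp53 and 7709 for Mdm2 beside canonical transcripts of 1850 and 3099 bases. The order between genes therefore depends on the length that is used. In WT the order was Phlda3 (953 normalized counts per kilobase), Trp53 (383), Ccng1 (309), Mdm2 (196), Bax (162), Cdkn1a (48.7), Zmat3 (39.4), Bbc3 (39.1), Eda2r (13.5) and Trp53inp1 (10.7). The ranges of Zmat3 and Bbc3 overlapped in WT, and so did those of Eda2r and Trp53inp1. In GαqKO Phlda3 was again first (491), and Bax (216), Trp53 (213) and Ccng1 (208) followed with ranges that overlapped. Mdm2 (119), Zmat3 (68.9), Bbc3 (51.7), Cdkn1a (32.4), Eda2r (7.48) and Trp53inp1 (2.54) came after them, so Bax moved up and Cdkn1a moved below Zmat3 and Bbc3. The level of Trp53 leaves out the reads on its copy.

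The p53 family and the regulators of p53 were a list of 24 genes, of which 23 were tested, 5 were higher, 11 lower and 7 not called, with a median log2 fold change of -0.12. That is 69.6% called, close to the 65.8% of all genes tested. Mdm4, the relative of Mdm2 that blocks p53 without degrading it, went the other way from Mdm2. It had 1351, 1426 and 1487 normalized counts in WT and 1728, 1805 and 1675 in GαqKO, a log2 fold change of 0.29 (95% interval 0.18 to 0.40, adjusted p = 0.000223 from limma). The ratio of Mdm2 to Mdm4 was 1.05, 1.09 and 1.04 in the WT libraries and 0.493, 0.503 and 0.591 in the GαqKO libraries, which did not overlap. Cdkn2a, whose locus encodes the cell cycle inhibitor p16Ink4a and the Mdm2 inhibitor p19Arf, was read in every library. It had 7946, 7323 and 6976 normalized counts in WT and 4457, 4385 and 4677 in GαqKO, a log2 fold change of -0.72 (adjusted p = 2.36e-08 from limma), and gene counts do not tell its products apart. The ratio of Cdkn2a to Mdm2 overlapped between the groups, at 4.49 to 5.59 in WT and 4.72 to 5.23 in GαqKO. Ppm1d, a phosphatase that ends the p53 response, was not called, at 453 ± 12.9 and 461 ± 22 normalized counts (SD, n = 3; log2 fold change 0.03, 95% interval -0.12 to 0.17, adjusted p = 0.752 from limma).

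The relatives of p53 were low. Trp63 had 4.2, 1.0 and 4.1 normalized counts in WT and 19.7, 25.4 and 11.1 in GαqKO (log2 fold change 2.33, adjusted p = 0.000972 from limma, and 1.53 to 2.89 over the alternatives). Trp73 had 2.1 in WT replicate 1 and was listed at 0 in the other 5 libraries. The largest changes among regulators that averaged 100 normalized counts or more were in Hipk2, a kinase that phosphorylates p53, at -1.66 on the log2 scale (1394 ± 205 to 438 ± 17.7, SD, n = 3), and in Sirt1, a deacetylase of p53, at -0.89. Wrap53, which overlaps Trp53 on the opposite strand, had 427, 380 and 461 normalized counts in WT and 256, 249.7 and 248 in GαqKO, at -0.74 on the log2 scale. The kinases of the DNA damage response that rose were Atr (0.66), Chek1 (0.43) and Chek2 (0.37), which make up, with Mdm4 and Trp63, the 5 genes that rose and which were picked out once their values were known. Atm, the kinase that acts first at DNA breaks, was not called, at 412 ± 68.4 and 407 ± 28.3 normalized counts (SD, n = 3).

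Beyond the core targets, 46 other p53 targets were listed, of which 38 were tested. Of these 11 were higher, 12 lower and 15 not called, so that 60.5% had an adjusted p under 0.05 beside 65.8% of all genes. Their median log2 fold change was -0.02, and 4 rose and 7 fell past 1 on the log2 scale. Of all genes tested, 20.7% passed 1 in size with an adjusted p under 0.05, and 10.5% did so with a fall. The growth arrest targets held 14 genes, of which 12 were tested, 4 higher and 6 lower, with a median of -0.15. That is 83.3% called, beside 65.8% of all genes tested. Plk2, a p53-induced kinase, had the most normalized counts of those named, with 7124, 7502 and 7067 in WT and 2009, 2019 and 2009 in GαqKO, a log2 fold change of -1.84 (adjusted p = 2.63e-13 from limma). Btg2, an antiproliferative gene, fell from 345 ± 11.6 to 55.7 ± 7.2 normalized counts (SD, n = 3; log2 fold change -2.62, adjusted p = 6.43e-10 from limma). Ccng2, the relative of Ccng1, was lower by a log2 fold change of -1.20. Sesn1, a stress gene that restrains mTORC1, rose from 301 ± 14.4 to 860.0 ± 17.2 normalized counts (SD, n = 3; log2 fold change 1.51, adjusted p = 1.59e-10 from limma). The other 3 that rose, named after their values were seen, were Sertad1 (0.76), Gtse1 (0.24) and the non-coding Trp53cor1 (1.09).

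Of 13 cell death targets, 10 were tested, of which 3 were higher, 2 lower and 5 not called, with a median of 0.04. Those that rose were Bid (0.45), a BH3-only protein cut by caspases, Dram1 (0.33), a lysosomal protein, and Aen (0.21), a nuclease. Of the exon bases of Bid, 95.1% lie within the spans of other annotated genes and 34.5% are shared with exons of other genes. What this does to the counts of Bid was not tested. The call of Aen was lost in DESeq2 (adjusted p = 0.0639) and with chromosome medians removed (adjusted p = 0.677). Apaf1, the scaffold of the apoptosome, fell from 453 ± 8.8 to 253 ± 4.6 normalized counts (SD, n = 3; log2 fold change -0.84, adjusted p = 2.72e-07 from limma). Perp, a membrane protein of desmosomes, had 27.1, 13.6 and 17.3 normalized counts in WT and was listed at 0 in all GαqKO libraries, at least 6.47-fold lower against a floor of 3 counts per library. It was named after its values were seen. Pmaip1, which encodes the BH3-only protein NOXA, had at most 1.2 normalized counts in any library, so no difference was detectable at this depth. Fas, a death receptor, was not called, at 35.3 ± 11.4 and 29.0 ± 6.2 (SD, n = 3).

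Of 19 targets in repair and metabolism, 16 were tested, of which 4 were higher, 4 lower and 8 not called, with a median of -0.09. Abca1, a cholesterol exporter, had 2.1, 1.9 and 5.1 normalized counts in WT and 243, 215 and 216 in GαqKO, a log2 fold change of 5.89 (adjusted p = 8.57e-10 from limma). As WT was near the floor of 3 counts, the size of this change depends on the pseudocount, and it ran from 4.86 to 6.25 over the alternatives. Cpt1c, a relative of the carnitine palmitoyltransferases, fell by 1.70 on the log2 scale and Gls2, the liver-type glutaminase, by 0.91, while Tigar, which lowers glycolytic flux, rose by 0.26 (adjusted p = 0.00812 from limma). The call of Tigar was lost in DESeq2 (adjusted p = 0.195) and without GαqKO replicate 3 (adjusted p = 0.0522). The other 4 with a call, named after their values were seen, were Xpc (0.26) and Dglucy (1.66), which rose, and Dcxr (-2.20) and Zfp365 (-0.23), which fell. Sco2 and Aldh4a1 were listed at 0 in all 6 libraries, and 100% of the exon bases of each lie within the spans of other annotated genes. What part these overlaps have in the listed zeros was not tested.

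**Figure D4:**
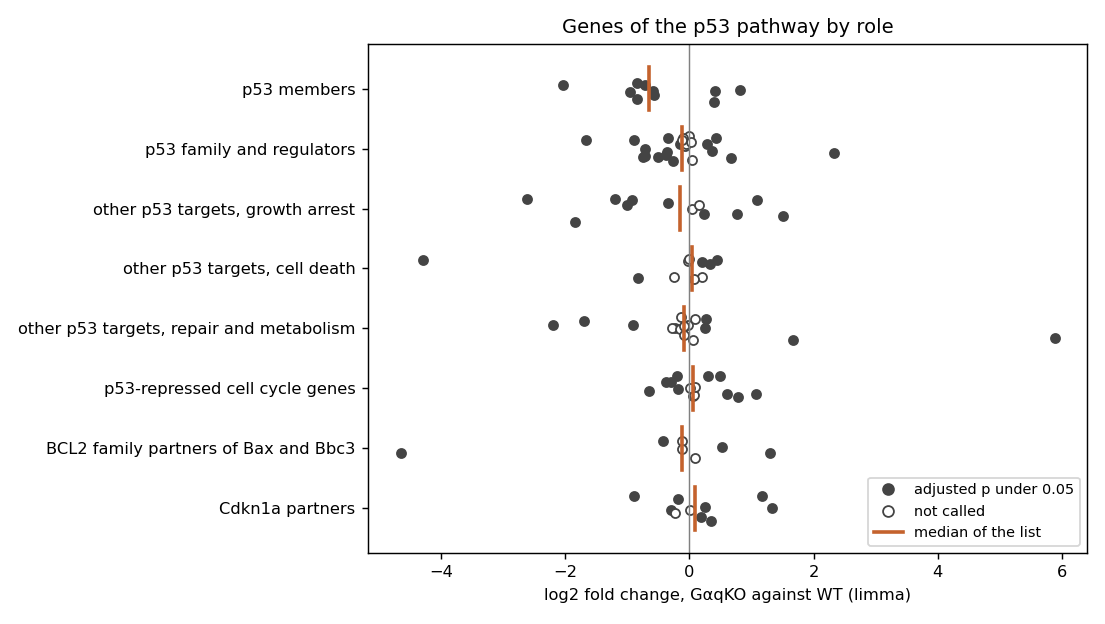
Log2 fold change, GαqKO against WT, of every tested gene in 8 lists of the p53 pathway. Each dot is a gene, filled where its adjusted p from limma was under 0.05, and the vertical bar is the median of the list. The median of the core p53 genes lies at -0.66, and those of the other lists lie between -0.15 and 0.10.

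Genes that p53 represses, mostly through p21, were a list of 14 cell cycle genes, all tested. Of these 5 were higher, 5 lower and 4 not called, with a median of 0.06, or 71.4% called beside 65.8% of all genes. Ccna2, the S-phase cyclin, rose from 2216 ± 128.3 to 4679 ± 143.1 normalized counts (SD, n = 3; log2 fold change 1.08), Mybl2 rose by 0.79 and Mki67 by 0.60, whereas Aurkb fell by 0.65. Among 11 partners of p21, with 10 tested, 5 were higher, 3 lower and 2 not called, or 80.0% called beside 65.8% of all genes. Ccnd1 (1.34), Ccne1 (1.17) and Pcna (0.35) rose and Ccnd2 (-0.90) fell. Of the exon bases of Ccnd1, 48.4% are shared with exons of other genes, and what this does to its counts was not tested.

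The BCL2 family partners of Bax and Bbc3 were a list of 12 genes, of which 7 were tested, 2 higher, 2 lower and 3 not called, or 57.1% called beside 65.8% of all genes. Bcl2l1, which encodes the Bax inhibitor BCL-XL, rose from 927 ± 40.1 to 2276 ± 28.6 normalized counts (SD, n = 3; log2 fold change 1.30, adjusted p = 3.64e-11 from limma), and Bcl2, another inhibitor of Bax, rose by 0.53. The ratio of Bax to Bcl2l1 was 0.377, 0.308 and 0.294 in the WT libraries and 0.176, 0.163 and 0.190 in the GαqKO libraries, so it was lower in every GαqKO library although Bax itself was higher. Bmf, which encodes a BH3-only protein, fell from 392 ± 41.0 to 14.6 ± 1.7 normalized counts (SD, n = 3; log2 fold change -4.65) and Bcl2l11, which encodes BIM, by a log2 fold change of -0.42 (adjusted p = 0.00442 from limma). The call of Bcl2l11 was lost in DESeq2 (adjusted p = 0.0859). Bak1, Bcl2l2 and Bcl2a1b were listed at 0 in all 6 libraries, and 100%, 97.8% and 100% of their exon bases lie within the spans of other annotated genes.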

How the data were processed

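Poly-A selected, stranded libraries of 6 MEF cultures were sequenced as paired ends. Per the study's methods the authors aligned the reads with Rbowtie2, whose underlying aligner does not split reads over introns, to GRCm39, counted them with featureCounts on GENCODE release M32 and used DESeq2. The strand setting of the counting, the versions and any low-count filter are not given in the sources used here. The deposited values are a signal, gene counts scaled by 1 size factor for each library. In 5 libraries 100% of the values above 0 came out whole (tolerance 0.05) after division by the value of 1 read, so that reads could be recovered. The recovered reads of GαqKO replicate 3 were not accepted by a check of the unit, so count tests used the other 5 libraries.

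Symbols and coordinates came from GENCODE release M39, which matched 56310 of 56953 identifiers (98.9%). limma was fitted with a trend in the prior spread, without covariates, for the single comparison of GαqKO with WT. A call is an adjusted p under 0.05, and the fold threshold is a log2 fold change past 1 in size. Fold changes on the log2(value + 1) scale understate the change of low genes. The floor was 3 counts and covers counting error only. The members and the lists were chosen with earlier results of these data known, so the counts per list are descriptions. The lists were the p53 family and regulators, other targets (growth arrest, cell death, repair and metabolism), repressed cell cycle genes, BCL2 family partners, p21 partners and markers of 5 cell types. Named were all 10 members, Mdm4, Cdkn2a, Trp63, Trp73 and Ppm1d, and per list up to 4 called genes with the largest change and a mean of at least 100 normalized counts. Near-identical copies were searched with blastn 2.17.0 against the M39 transcripts. On simulated data, limma recovered 200 of 200 changed genes with 9 false calls among 14052 tested. The simulation gave every gene the same spread beyond counting error and changed only these 200, none with a low mean. In the real data 9279 genes were called and the spread differed between genes, so the simulated figures do not give the error rates here. Recovery of log2 fold changes under 1 in size, such as those of Bax and Bbc3, was not tested. limma 3.58.1, DESeq2 1.42.0 and edgeR 4.0.16 ran in R 4.3.3, and figures and tables in Python 3.11.15 with numpy 2.4.6, pandas 2.3.3 and matplotlib 3.10.9.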

Additional observations from a re-analysis of the deposited data

How the results depend on the processing

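The 10 core genes were refitted under 17 alternatives, which varied the filter, the pseudocount, the scaling, the prior spread, the count tests, the library left out, the chromosome medians, the copy of Trp53 and the replicate block. In all of them the direction of each of the 10 genes was the same and 7 genes were called lower. The number called higher was 3, except for 2 in DESeq2 and with chromosome medians removed, where Bbc3 was not called. With at least 10 normalized counts required in every library, 1596 of 12054 genes passed the fold threshold. With single libraries left out, 8712 to 9113 genes were called and 2996 to 3066 passed the fold threshold. Ppm1d, not called, ran from -0.002 (without GαqKO replicate 2, adjusted p = 0.982) to 0.065 on the log2 scale with single libraries left out. Tigar lost its call without GαqKO replicate 3 (0.20, adjusted p = 0.0522) and in DESeq2 (adjusted p = 0.195), Aen with chromosome medians removed (0.03, adjusted p = 0.677) and in DESeq2 (adjusted p = 0.0639), and Bcl2l11 in DESeq2 (adjusted p = 0.0859). With a pseudocount of 5, Abca1 was at 4.86 and Trp63 at 1.53, and in DESeq2 at 6.25 and 2.89. The cause was not tested. TMM scaling moved the median of all genes to -0.003, from -0.01.

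With the replicate number as a block, 8962 genes were called, and 3 core genes were higher and 7 lower. The numbers do not pair the libraries, since the correlations of same-numbered libraries were -0.045, -0.148 and -0.064 and 0 of 6 libraries correlated best with its own number.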
